A study of Mus musculus with 8 samples.

Results

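Interferon-stimulated genes are genes switched on by type I interferon or by interferon-gamma. A list of 47 of them, which includes the guanylate-binding proteins (GBPs) and the immunity-related GTPases (IRGs), was followed through the ascites macrophages of mice with ovarian tumors. The members were taken by gene symbol with no cut on their values, but the list was chosen with earlier results of these data known. Of the 47 symbols, 45 had a row among the 23469 gene rows used. A minimum mean of 1 TPM (a level scaled by transcript length and library total) was passed by 44 of these. In all, 8801 genes passed it, and every test was run over them. Mx1 and Mx2 were not analysed here. Gbp5, with a mean of 0.725 TPM, was under the minimum and was not tested.

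The mice were female Ms4a3Cre-RosaTdT animals (genotype Ms4a3TdT, C57BL/6 background) with no treatment named in the labels, injected in the peritoneal cavity with ID8 cells, a mouse ovarian surface epithelial tumor line, at 4 to 5 weeks of age, and bloody ascites was taken 65 days later. In these mice, Cre driven by Ms4a3 marks the progeny of granulocyte-monocyte progenitors with tdTomato, so macrophages sorted without tdTomato were named ascites-enriched embryonic macrophages (AeEM) and those with tdTomato ascites-enriched monocyte-derived macrophages (AeMM). Each group had 4 Smart-seq2 bulk libraries, labelled biological replicates 1 to 4. The model tells progenitor history from tdTomato alone, all cells came from tumor-bearing mice, and the libraries without tdTomato are embryonic only as far as labelling was complete.

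Type I interferons signal through the receptor chains IFNAR1 and IFNAR2 and the kinases JAK1 and TYK2, which lead to a complex containing STAT2 and IRF9 that binds the interferon-stimulated response element (ISRE). Interferon-gamma uses IFNGR1, IFNGR2, JAK1 and JAK2, and its signal ends at the gamma-activated sequence (GAS). The induced proteins block virus entry, degrade or sequester foreign RNA, sense nucleic acids in the cytosol and attack the membranes around intracellular pathogens, and macrophages are a main cell type in which this program is studied.

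The words that these factors read were found in the promoters of part of the members. RefSeq windows of 250 bases upstream of the start site (GRCm38.p6, the same assembly as mm10) were matched by symbol for 35 members. The ISRE word GAAANNGAAA, on either strand and with overlapping matches counted, was in at least 1 window of 18 of them (51.4%), against 3.46% of the 27025 genes with such a window and 3.71% of the tested genes matched. The GAS word TTCNNNGAA was in 8 of the 35 (22.9%), against 8.13% of all genes. These are matches of letters and not measured binding. Windows of 5 members that hold the ISRE word are shown. They come from the ISG15 system, the IFIT genes, the antiviral effectors and the GBP and IRG GTPases. The groups overlapped in some of these members and not in others. The windows are written in the direction of the gene, with the ISRE words, or their reverse complement TTTCNNTTTC, in capitals. Isg15 (chr4:156200819-156201068, minus strand) holds 3 overlapping words, the nearest of which begins 66 bases before the start site. Ifit1 (chr19:34640639-34640888, plus strand) holds 2, Rsad2 (chr12:26456453-26456702, minus strand) holds 1 at 120 bases, and Trim30a (chr7:104465194-104465443, minus strand) holds 1 at 36 bases. Another Trim30a window (chr7:104446126-104446375), not shown, holds none. Igtp (chr11:58199306-58199555, plus strand) holds 1 at 34 bases and 1 GAS word, which is left in lower case.
Isg15: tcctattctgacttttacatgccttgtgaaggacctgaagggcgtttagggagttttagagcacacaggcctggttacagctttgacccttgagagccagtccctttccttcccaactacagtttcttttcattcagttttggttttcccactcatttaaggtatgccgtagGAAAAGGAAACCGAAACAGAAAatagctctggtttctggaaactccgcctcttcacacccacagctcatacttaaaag
Ifit1: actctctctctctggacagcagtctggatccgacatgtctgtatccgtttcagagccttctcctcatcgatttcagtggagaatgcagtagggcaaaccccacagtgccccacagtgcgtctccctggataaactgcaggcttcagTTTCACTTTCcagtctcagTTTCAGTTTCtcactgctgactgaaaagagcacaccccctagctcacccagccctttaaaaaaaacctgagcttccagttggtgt
Rsad2: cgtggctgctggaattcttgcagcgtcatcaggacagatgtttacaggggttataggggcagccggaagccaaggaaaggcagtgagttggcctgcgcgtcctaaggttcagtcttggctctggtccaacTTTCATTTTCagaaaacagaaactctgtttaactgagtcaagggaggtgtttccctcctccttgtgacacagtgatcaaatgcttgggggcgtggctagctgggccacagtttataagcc
Trim30a: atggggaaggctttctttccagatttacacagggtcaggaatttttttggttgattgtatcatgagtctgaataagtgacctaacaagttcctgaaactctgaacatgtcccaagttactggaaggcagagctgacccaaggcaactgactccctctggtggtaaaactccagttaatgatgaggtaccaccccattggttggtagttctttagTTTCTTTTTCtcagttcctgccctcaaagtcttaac
Igtp: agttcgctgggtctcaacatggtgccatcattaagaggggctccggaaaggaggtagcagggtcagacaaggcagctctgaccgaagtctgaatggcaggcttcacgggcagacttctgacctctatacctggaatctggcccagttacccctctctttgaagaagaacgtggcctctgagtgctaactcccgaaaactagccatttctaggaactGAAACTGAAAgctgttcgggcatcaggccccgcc

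None of the 44 interferon-stimulated genes tested was called different between AeEM and AeMM, and the differences measured were small. They ran from -0.57 (Iigp1) to 0.28 (Samd9l) as AeEM minus AeMM on the log2(TPM + 1) scale, on which a fold change of a low gene is understated. More members leaned down than up in AeEM: 31 of the 44 (70.5%) had the lower mean in AeEM, against 51.2% of all genes tested, and the median difference was -0.09 for the members and -0.01 for all genes. The mean was lower in AeEM for 8 of 9 antiviral effectors, 7 of 8 GBP and IRG GTPases, 4 of 4 IFIT genes and 4 of 5 other induced genes, whereas 4 of the 6 genes of the oligoadenylate synthetase group had the higher mean in AeEM. These are bulk libraries, in which fewer cells of a type and less RNA per cell cannot be told apart.

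By limma's test with Benjamini-Hochberg adjustment over all 8801 genes, 212 genes (2.41%) had an adjusted p under 0.05 and 0 of them were members. At an unadjusted p under 0.05, limma gave 8 members (18.2%), close to the 18.0% of all genes. With a term for 3 sets of libraries, described below, 14 genes (0.159%) and 0 members passed, and 6 members (13.6%) were under an unadjusted 0.05 against 9.64% of all genes. The libraries of the groups did not overlap in 7 members (15.9%), against 12.2% of all genes. In 6 of these (13.6%) every AeEM library lay below every AeMM library, an order seen in 6.53% of all genes. The lowest limma adjusted p among members was 0.0595, for Trim30a. Other processing settings called between 0 and 2 members, named with their genes below.

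The size that these data leave room for can be read from the intervals. They were taken from the fit with a term for these sets, on the log2(TPM + 1) scale. On it 1 unit is about 2-fold for abundant genes and more for low ones such as Isg15. The 95% limma intervals of 42 of the 44 members lay within 1 unit of no difference, and 17 lay within 0.5. The shares of all genes tested were 84.8% and 31.0%. The 2 members beyond 1 unit were Usp18, with an interval from -0.58 to 1.02, and Gbp4, with -0.58 to 1.10, both expressed at under 5 TPM. The intervals are per gene and not adjusted for the number of genes.

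**Figure D1:**
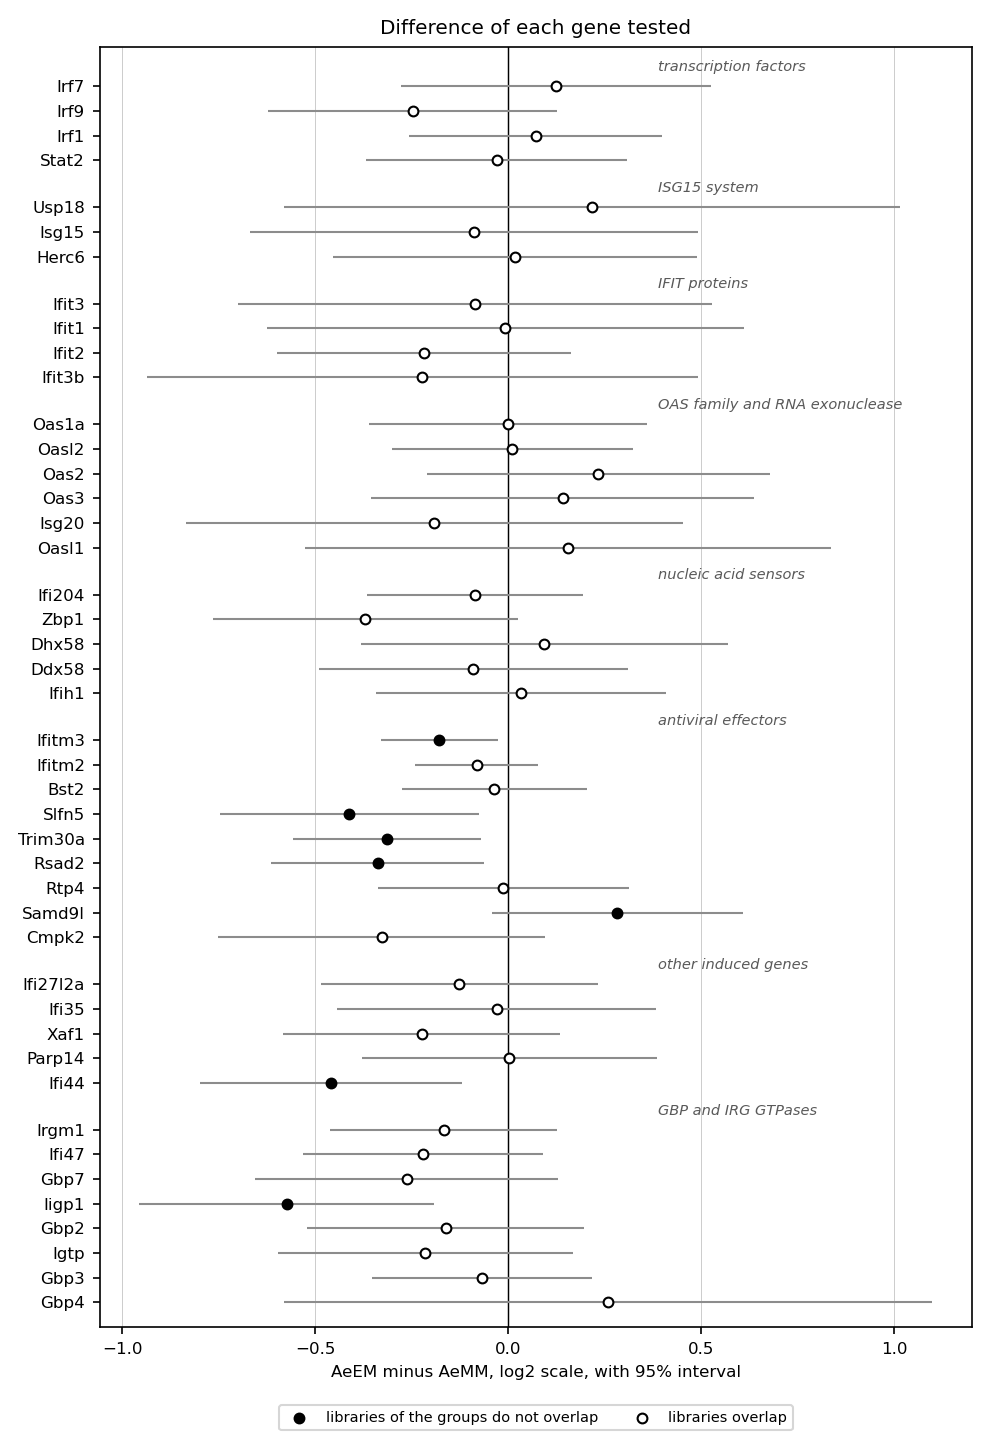
Difference of each of the 44 tested interferon-stimulated genes, AeEM minus AeMM, on the log2(TPM + 1) scale (horizontal axis), grouped by role and ordered by level, with the 95% limma interval from the fit that includes the 3 sets. Filled points are the 7 genes whose AeEM and AeMM libraries do not overlap, 6 of them to the left of 0, and the lines of Usp18 and Gbp4 are the ones that cross 1.

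The members were expressed over a wide range. Ifitm3 had the highest mean over the 8 libraries, 12980 TPM, followed by Ifitm2 at 3636 TPM, Ifi27l2a at 758 TPM and Bst2 at 175 TPM. The median member stood at 21.0 TPM. At the low end were Isg15 at 1.47 TPM, Herc6 at 1.34 TPM and Gbp5. TPM values are scaled by transcript length, so these levels may be set side by side. Summed over the 45 members with a row, the AeEM libraries held 17110 to 18896 TPM and the AeMM libraries 18833 to 20396 TPM, sums set mostly by Ifitm3 and Ifitm2.

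**Figure D2:**
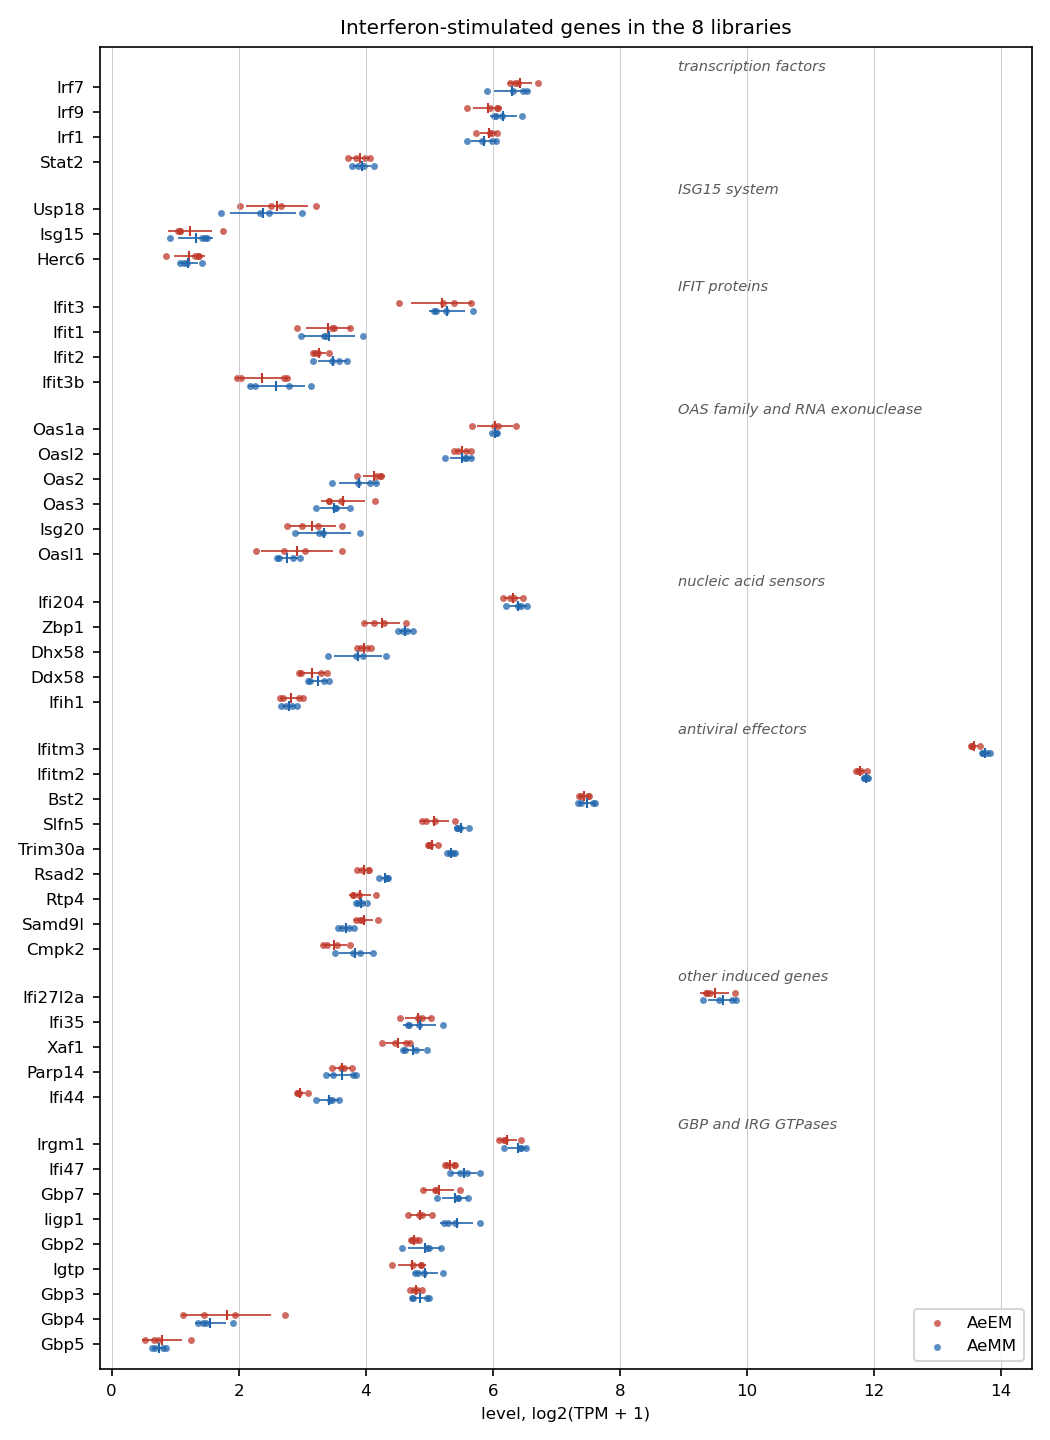
Level of each of the 45 interferon-stimulated genes in every library, on the log2(TPM + 1) scale (horizontal axis), with AeEM in red and AeMM in blue, grouped by role and ordered by mean. Points are libraries, ticks are group means and lines are 1 SD (n = 4). Levels run from under 1 TPM for Gbp5 to 12980 TPM for Ifitm3, and the groups overlap in most rows.

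Factors that carry the interferon signal to DNA did not separate the groups. Irf7, which amplifies type I interferon production, had levels of 6.39, 6.28, 6.35 and 6.71 in AeEM replicates 1 to 4 and 6.31, 6.48, 6.53 and 5.90 in AeMM replicates 1 to 4. The groups overlapped, with the highest value in AeEM replicate 4 and the lowest in AeMM replicate 4, and the difference was 0.12 (SE 0.15, limma adjusted p = 0.738). Irf9, the DNA-binding subunit of the ISRE-binding complex, had levels of 5.96, 6.07, 6.06 and 5.59 in AeEM and 6.14, 6.01, 6.05 and 6.47 in AeMM. AeEM replicate 4 was the low library and AeMM replicate 4 the high one, with the other 6 close together, and the difference was -0.25 (SE 0.14, limma adjusted p = 0.391). Stat2, whose product joins IRF9 in that complex, and Irf1, a factor induced by interferon-gamma, differed by -0.03 and 0.07, each with overlapping groups. For all 4 the 95% interval lay within 1 log2 unit.

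Low levels marked the ISG15 system. Isg15 encodes a ubiquitin-like modifier, Herc6 a ligase that attaches it in the mouse, and Usp18 the protease that removes it and also restrains signalling at the type I receptor. Usp18 had levels of 2.50, 2.66, 2.03 and 3.21 in AeEM and 2.48, 2.34, 1.72 and 2.99 in AeMM. The libraries of each group were widely spread, replicate 3 being the lowest and replicate 4 the highest in both, and the difference was 0.22 (SE 0.30, limma adjusted p = 0.778). Without AeMM replicate 3 the difference was -0.003, and without AeMM replicate 4 it was 0.42. Isg15 itself stood at 1.07, 1.08, 1.04 and 1.75 in AeEM and 1.42, 1.49, 1.47 and 0.92 in AeMM, with overlapping groups and a difference of -0.09 (SE 0.20).

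The 4 IFIT genes, whose proteins bind foreign RNA, lie together on chromosome 19 (34550694 to 34650009 in mm10, GENCODE M21) and all had the lower mean in AeEM, with none passing. Ifit3, the highest of them, had levels of 5.39, 5.22, 5.65 and 4.53 in AeEM and 5.07, 5.27, 5.69 and 5.10 in AeMM. AeEM replicate 4 lay below all others and AeEM replicate 3 and AeMM replicate 3 above, the difference was -0.09 (SE 0.24, limma adjusted p = 0.901), and it took the other sign when some single libraries were left out, between -0.24 and 0.14. Its neighbor Ifit3b had 2.77, 2.71, 2.04 and 1.97 in AeEM and 2.18, 2.26, 3.13 and 2.80 in AeMM, a difference of -0.22 (SE 0.27) between overlapping groups. Of all 100-base stretches in the Ifit3 transcripts, 31.7% also occur in Ifit3b, and 27.4% of those of Ifit3b occur in Ifit3, so the split of reads between the pair is uncertain. Ifit1 and Ifit2 differed by -0.01 and -0.22.

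Oligoadenylate synthetases sense double-stranded RNA and make the messenger that activates RNase L, and Isg20 is an exonuclease that degrades RNA. Oas1a, the most abundant, had levels of 6.08, 6.01, 6.37 and 5.67 in AeEM and 5.98, 6.06, 6.04 and 6.06 in AeMM. The AeMM libraries were nearly identical and lay inside the AeEM range, so the difference was within 0.01 of 0 (95% interval -0.36 to 0.36 in the fit with a term for the sets). In Oas1a, 40.9% of 100-base stretches also occur in Oas1g, which makes its level uncertain. Oas2 had 4.17, 3.87, 4.23 and 4.24 in AeEM and 3.87, 4.16, 3.47 and 4.07 in AeMM, and its groups overlapped although AeMM replicate 3 lay below the rest, for a difference of 0.23 (SE 0.16, limma adjusted p = 0.5003). Oas3, Oasl1, Oasl2 and Isg20 differed by 0.14, 0.15, 0.01 and -0.19, none with separate groups. Oas1a, Oas2 and Oas3 lie beside one another on chromosome 5, as do Oasl1 and Oasl2 at another place on it.

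Of the nucleic acid sensors, Ifi204, a PYHIN family sensor of DNA, was the most abundant. Its levels were 6.16, 6.27, 6.34 and 6.48 in AeEM and 6.54, 6.44, 6.21 and 6.40 in AeMM, overlapping groups with a difference of -0.09 (SE 0.0952, limma adjusted p = 0.704), and 10.7% of its 100-base stretches occur in related genes such as Ifi211. Zbp1, a sensor of left-handed nucleic acids that can start necroptosis, had 4.28, 4.13, 4.64 and 3.97 in AeEM and 4.59, 4.75, 4.65 and 4.51 in AeMM. Of the AeEM libraries, 3 lay below every AeMM library and AeEM replicate 3 lay among them, and the difference was -0.37 (SE 0.14, limma adjusted p = 0.206). Ddx58 and Ifih1, which encode the cytosolic RNA sensors RIG-I and MDA5, differed by -0.09 and 0.03, and their regulator Dhx58 by 0.09.

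Antiviral effectors made up 5 of the 7 members with separate groups. Trim30a (chr7:104409025-104465193, minus strand), a tripartite-motif protein known to restrain Toll-like receptor signalling, had levels of 5.02, 4.97, 5.15 and 5.003 in AeEM and 5.38, 5.41, 5.32 and 5.28 in AeMM. All AeEM libraries lay below all AeMM libraries, with AeEM replicate 3 nearest to them, and 4.41% of its 100-base stretches occur in Trim30d. The difference was -0.31 (SE 0.0713, 0.805 of the AeMM level on this scale, limma adjusted p = 0.0595, or 0.399 with a term for the sets). Trim30a was called when low genes were not filtered out (adjusted p = 0.0457), with a minimum of 5 TPM (0.0459), after quantile normalization (0.0274), with median-of-ratios size factors (0.0306) and without AeEM replicate 3 (0.0462), all by limma, whose adjusted p over 18 alternatives ran from 0.0274 to 0.860.

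Rsad2 (chr12:26442746-26456452, minus strand) encodes viperin, an enzyme that makes a chain-terminating nucleotide. It had levels of 4.05, 3.94, 4.03 and 3.86 in AeEM and 4.22, 4.35, 4.34 and 4.32 in AeMM, with every AeEM library below every AeMM library, and a difference of -0.34 (SE 0.0804, limma adjusted p = 0.0684). Cmpk2, a mitochondrial nucleotide kinase gene that lies next to Rsad2 and is read from the other strand, had 3.39, 3.55, 3.33 and 3.76 in AeEM and 3.91, 3.79, 3.51 and 4.12 in AeMM, where the groups overlapped and the difference was -0.33 (SE 0.15, limma adjusted p = 0.295). Slfn5 (chr11:82951349-82964840, plus strand), a member of the Schlafen family, had 5.09, 4.95, 5.40 and 4.89 in AeEM and 5.49, 5.62, 5.43 and 5.43 in AeMM. The groups did not overlap, although AeEM replicate 3 came close to AeMM replicates 3 and 4, and the difference was -0.41 (SE 0.12, limma adjusted p = 0.108). Without AeEM replicate 3 it was -0.52 (limma adjusted p = 0.0259), which passed, and over the 18 alternatives the adjusted p of Slfn5 ran from that value to 0.867.

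Ifitm3 (chr7:141009586-141010770, minus strand), which blocks virus entry at endosomal membranes, had levels of 13.54, 13.55, 13.66 and 13.53 in AeEM and 13.82, 13.78, 13.71 and 13.69 in AeMM. The AeEM libraries were all lower, but the smallest gap, between AeEM replicate 3 and AeMM replicate 4, was narrow. The difference was -0.18 (SE 0.0484, 0.884 of the AeMM level, limma adjusted p = 0.0965), the smallest in size of the 7 with separate groups and also that of the most abundant member. Ifitm2, its paralog, had 11.79, 11.75, 11.89 and 11.72 in AeEM and 11.88, 11.91, 11.84 and 11.84 in AeMM, groups that overlapped at AeEM replicate 3, and a difference of -0.08 (SE 0.0497, limma adjusted p = 0.437). Quantile normalization moved the difference of Ifitm3 to -0.10 (limma adjusted p = 0.427) and that of Ifitm2 to -0.31 (limma adjusted p = 0.0460), and with replicates 3 and 4 only Ifitm3 was at -0.10. In Ifitm2, 34.9% of 100-base stretches occur in other genes, mostly Gm45717.

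Samd9l (chr6:3372257-3399572, minus strand), a restriction factor of poxviruses, was the effector that ran the other way, with every AeEM library above every AeMM library. Its levels were 3.94, 3.85, 4.19 and 3.91 in AeEM and 3.74, 3.81, 3.57 and 3.63 in AeMM, led by AeEM replicate 3, and the difference was 0.28 (SE 0.10, limma adjusted p = 0.193). Bst2, which encodes the tether that holds budding virions at the cell surface, and Rtp4 differed by -0.04 and -0.01, with 95% intervals within 0.5 log2 units.

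Among the other induced genes, Ifi44 (chr3:151730922-151749960, minus strand) had separate groups. Its levels were 2.94, 2.94, 2.91 and 3.08 in AeEM and 3.44, 3.48, 3.21 and 3.59 in AeMM, every AeEM library being lower. The difference was -0.46 (SE 0.11, 0.727 of the AeMM level in TPM + 1, limma adjusted p = 0.0600). AeMM replicate 3 was the lowest of its group, and without it the difference was -0.53 (limma adjusted p = 0.0361), which passed, the lowest of a range up to 0.841 over the alternatives. Ifi27l2a, the most abundant of this group, had 9.37, 9.35, 9.82 and 9.42 in AeEM and 9.83, 9.76, 9.56 and 9.32 in AeMM. The AeEM libraries were close together except replicate 3, which was almost as high as the highest AeMM library, and the difference was -0.13 (SE 0.14, limma adjusted p = 0.697). It was 0.18 when replicates 3 and 4 were taken alone. Xaf1, a gene linked to apoptosis, Ifi35 and Parp14 differed by -0.22, -0.03 and, for Parp14, less than 0.01.

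Guanylate-binding proteins and IRGs are induced mainly by interferon-gamma and gather on the vacuoles of intracellular bacteria and parasites. Iigp1, an effector IRG, had levels of 5.04, 4.88, 4.85 and 4.66 in AeEM and 5.23, 5.40, 5.29 and 5.80 in AeMM. All AeEM libraries were lower, with AeEM replicate 4 the lowest and AeMM replicate 4 the highest of the 8. The difference was -0.57 (SE 0.14, 0.672 of the AeMM level in TPM + 1, limma adjusted p = 0.0694, or 0.317 with a term for the sets). It was the largest in size of any member, and with a minimum of 5 TPM it passed (limma adjusted p = 0.0455, against up to 0.647 under the other alternatives). Irgm1, the most abundant of these GTPases and a regulator of the effector IRGs, had 6.17, 6.197, 6.10 and 6.44 in AeEM and 6.45, 6.42, 6.18 and 6.53 in AeMM. The groups overlapped through AeEM replicate 4, which was high, and AeMM replicate 3, which was low, and the difference was -0.17 (SE 0.10, limma adjusted p = 0.436).

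Other GTPases of the list overlapped between the groups. Ifi47 and Igtp, both IRGs, differed by -0.22 and -0.22. Gbp2, Gbp3 and Gbp7 differed by -0.16, -0.07 and -0.26, and Gbp4 by 0.26 (SE 0.32), a value carried by AeEM replicate 4 at 2.74 where the other 7 libraries lay between 1.12 and 1.95. Gbp5, with levels of 0.67, 0.73, 1.25 and 0.53 in AeEM and 0.86, 0.80, 0.68 and 0.64 in AeMM, was too low to test. In Gbp7, 10.01% of 100-base stretches are shared with other genes.

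Deviations were also read library by library. The AeEM and AeMM libraries of replicate 1, and those of replicate 2, mirror each other, because the adjustment described below set their gene means equal. In replicate 2, AeEM was the lower library for 36 of the 44 members, as it was for 5779 of all 8801 genes. The mean deviation of the 44 members from their own gene means was -0.01, -0.10, -0.07 and -0.01 on the log2 scale in AeEM replicates 1 to 4 and 0.01, 0.10, less than 0.01 and 0.08 in AeMM replicates 1 to 4. AeMM replicate 4 was the highest library for 13 members but the lowest for 7, and AeEM replicate 4 the lowest for 14 but the highest for 7. Members split within AeEM replicate 4: Oas3, Oasl1 and Gbp4 were above their means while Ifit3, Irf9 and Iigp1 were below.

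**Figure D3:**
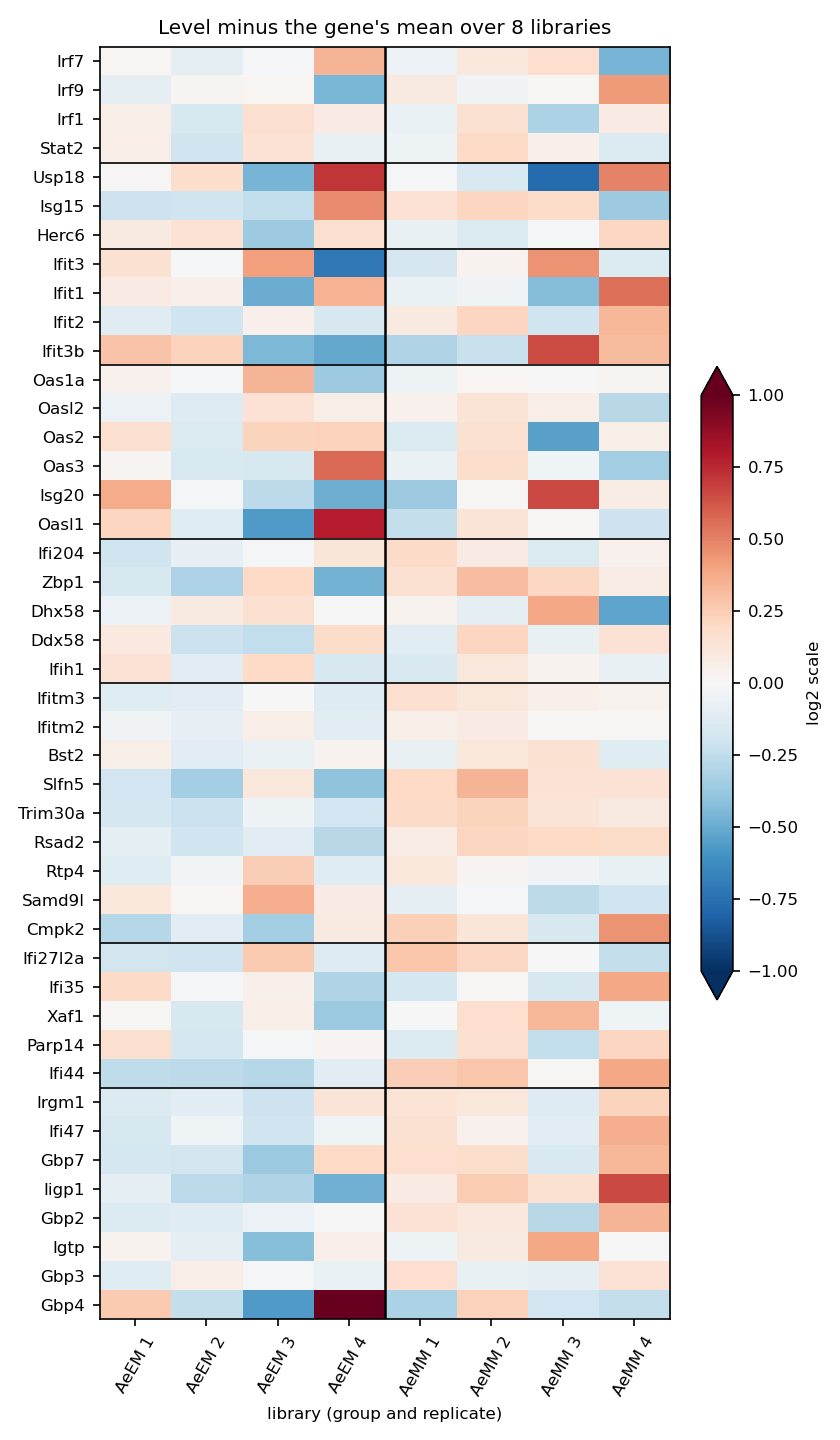
Heat map of the level of each of the 44 tested members (rows, in the same role groups, separated by lines) minus the mean of that gene over the 8 libraries (columns), on the log2 scale, with red above and blue below the gene mean. Rows such as Trim30a, Rsad2 and Ifi44 are blue across AeEM and red or pale across AeMM, whereas no column is of 1 color throughout.

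The deposited values had been adjusted between 3 sets of libraries: within replicate 1, within replicate 2, and within replicates 3 and 4 as one set, the mean of each gene was nearly the same. A gene's set mean lay a median of 0.00627, 0.00205 and 0.00318 log2 units from its overall mean in these sets, against 0.106 for replicate 3 and 0.105 for replicate 4 alone. What set the libraries apart before this is not stated in the sources used here. Within the sets, the median difference of the members was -0.04 in replicate 1 (22 lower, 22 higher), -0.23 in replicate 2 (36 lower, 8 higher) and -0.07 in replicates 3 and 4 (27 lower, 17 higher). The same medians over all genes were -0.01, -0.14 and 0.05. AeEM was lower in all 3 sets for 14 members (31.8%), against 19.2% of all genes: Ifit2, Zbp1, Rsad2, Cmpk2, Ifitm2, Ifitm3, Trim30a, Slfn5, Ifi44, Gbp2, Gbp7, Iigp1, Irgm1 and Ifi47. It was higher in all 3 for Usp18 and Samd9l (4.55%, against 13.4% of all genes).

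Members with and without the ISRE word had like median differences but not like counts of lower means. Among the 34 tested members with a promoter window, the groups did not overlap in 3 of the 17 with the word and in 3 of the 17 without it. The median difference was -0.09 in both. Members with the word had the lower mean in AeEM in 16 of 17 cases and those without it in 10 of 17, a comparison given as counts and not tested.

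The rest of the pathway was read from lists of 120 other genes, 94 of which had a row and 84 of which were tested. Of the interferon genes themselves, 3 of the 21 listed had a row. Ifnk was at 1.10 TPM, Ifng at 0.009 TPM and Ifnl2 at 0.006 TPM, so none of these 3 was well above the minimum. The other ligands could not be read. Ifnk, the tested ligand, differed by -0.95 between overlapping groups and did not pass (limma adjusted p = 0.225). All 5 receptor chains tested had intervals within 0.5 log2 units of 0: Ifnar1 differed by -0.06, Ifnar2 by -0.05, Ifngr1 by 0.06, Ifngr2 by 0.02 and Il10rb, a chain of the interferon-lambda receptor, by -0.09. Ifngr1 was the most abundant of them, at 81.7 TPM. The other chain, Ifnlr1, was under the minimum.

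The kinases Jak1, Jak2 and Tyk2 differed by -0.09, -0.01 and -0.20, with no call. Upstream of interferon, none of the 10 genes tested passed. Tlr7, the endosomal receptor for single-stranded RNA, came closest, with 4.56, 4.62, 4.71 and 4.48 in AeEM, 4.98, 4.92, 4.88 and 5.01 in AeMM and no overlap between the groups, for a difference of -0.36 (SE 0.0775, limma adjusted p = 0.0523). It passed with a pseudocount of 5 (0.0482), without the filter (0.0479), with a minimum of 5 TPM (0.0387) and without AeEM replicate 3 (0.0436), within a limma adjusted p range of 0.0387 to 0.839 over the alternatives. Its adaptor Myd88 differed by 0.24, Irf3 by 0.15 and Irf5 by 0.10. Of the 7 inhibitors tested none passed, with Ptpn6, the phosphatase SHP-1, at 0.29 and Socs3 at -0.24. Of 6 other GBP and IRG genes none passed either, with Tgtp2 at -0.02 and Irgm2 at -0.11.

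Calls in the pathway came from the wider list of 57 interferon-stimulated genes outside the 47. Of the 51 tested, 1 was higher and 3 were lower in AeEM, where 2.41% of all genes passed in either direction. Ly6e, a surface protein that restricts coronavirus entry, fell in AeEM, with 10.52, 10.44, 10.52 and 10.45 in AeEM against 10.90, 11.003, 11.03 and 10.89 in AeMM and a difference of -0.47 (SE 0.0511, limma adjusted p = 0.00317). Ly6a, which encodes the stem cell antigen Sca-1, fell too, with 8.55, 8.40, 8.52 and 8.43 in AeEM against 8.94, 9.20, 9.33 and 9.02 in AeMM and a difference of -0.65 (SE 0.0886, limma adjusted p = 0.00864). In both the groups did not overlap, and both passed whichever single library was left out. In replicates 1 and 2 the library that stays mirrors the one removed, so leaving 1 out is not an independent check. Neither passed with a term for the sets (limma adjusted p = 0.0605 and 0.0712) or with the replicate block (0.0754 and 0.0839).

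Slfn4, a Schlafen gene of myeloid cells, was lower in AeEM, with 2.02, 2.29, 2.11 and 2.45 against 3.42, 3.19, 3.59 and 2.80, a difference of -1.03 (SE 0.18, limma adjusted p = 0.0245) between groups that did not overlap. It no longer passed without AeEM replicate 1 (0.0897), AeEM replicate 2 (0.0718), AeMM replicate 1 (0.0932) or AeMM replicate 2 (0.0768), nor without the filter (0.0739). Ifi30, a lysosomal thiol reductase used in antigen processing, was higher in AeEM, with 10.95, 10.98, 10.93 and 11.03 against 10.69, 10.66, 10.71 and 10.61 and a difference of 0.30 (SE 0.0460, limma adjusted p = 0.0129). Its groups did not overlap, but it did not pass without AeEM replicate 1 (0.0532), AeEM replicate 2 (0.0583) or AeMM replicate 2 (0.0596), after quantile normalization (0.157) or without the mean-variance trend (0.0886). When the sets entered the fit, limma gave adjusted p values for Slfn4 and Ifi30 of 0.177 and 0.199, and neither passed. Slfn2, another Schlafen gene, had 7.53, 7.43, 7.61 and 7.33 in AeEM and 7.05, 7.18, 7.10 and 7.19 in AeMM, separate groups with AeEM above and a difference of 0.34 (SE 0.0741, limma adjusted p = 0.0502). It passed with a minimum of 5 TPM (0.0349), after quantile normalization (0.0184), with size factors (0.0306) and without AeEM replicate 4 (0.0389), but not with a term for the sets (0.314). Parp9 differed by -0.41 (limma adjusted p = 0.0595) and Rnf213 by -0.29 (0.0791), both with separate groups and AeEM below. Parp9 passed after quantile normalization (0.0428) and Rnf213 without the filter (0.0231), but neither with the sets (0.398 and 0.483). Cxcl9 had the largest difference in size of the 51, -1.32 between overlapping groups (limma adjusted p = 0.264, or 0.553 with the sets). Without AeEM replicate 4, its highest library, the difference was -1.95 and passed (limma adjusted p = 0.0175). Ifi207 passed without AeEM replicate 3 (-0.295, limma adjusted p = 0.0462). Among the 51, 30 had the lower mean in AeEM and 21 the higher. Of the 51 genes, 10 had separate groups, 6 with AeEM below and 4 with AeEM above, where 12.2% of all genes had separate groups.

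**Figure D4:**
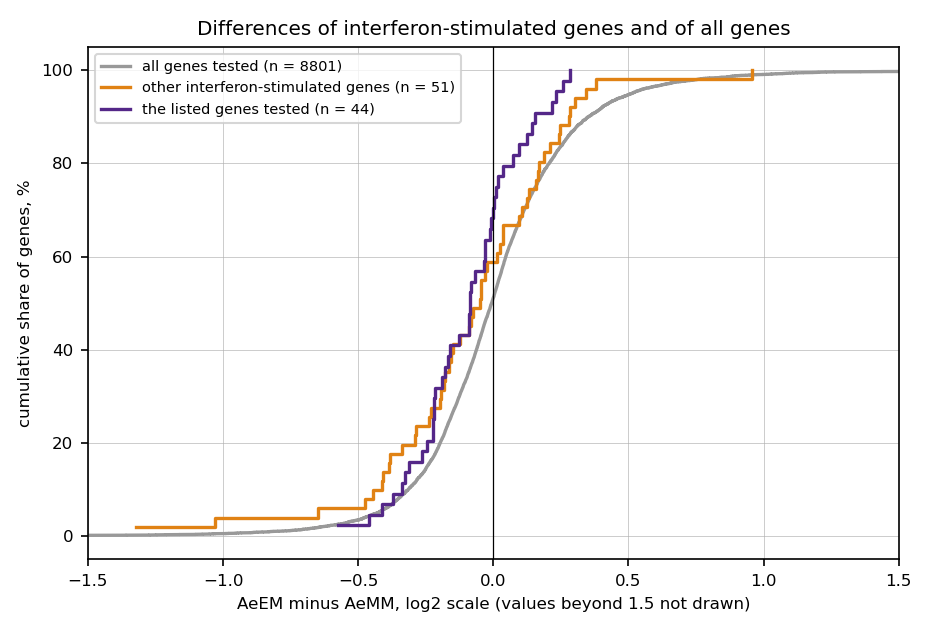
Cumulative share of genes (vertical axis, %) by difference between AeEM and AeMM (horizontal axis, log2 scale) for the 44 tested members, the 51 other interferon-stimulated genes tested and all 8801 genes tested. Around 0 the line of the members lies above that of all genes. It reaches 70.5% at 0, where all genes reach 51.2%, and ends at 0.28, inside the range of all genes.

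Library-wide facts touch these values as follows. The libraries summed to 958862 to 974303 TPM with 8498 to 8753 genes at 1 TPM or more, and because only TPM values were at hand, depth is unknown and no counting interval is given. All 6 macrophage markers were expressed and none passed, but 5 of 6 had the lower mean in AeEM and 4 had separate groups (Csf1r at -0.28, Mertk at -0.26 and Adgre1 at -0.16 below, Cd68 at 0.13 above). Of 4 monocyte markers tested, Ly6c2 (-1.55) and Chil3 (-2.16) fell in AeEM, while Ccr2, the most abundant at 167 TPM, was at 0.24 and Plac8 at -0.18, neither called. Of 2 dendritic cell markers tested both rose (Cd209a by 3.65, Itgax by 1.05), whereas the defining dendritic genes Flt3 and Zbtb46 were under 0.5 TPM. Of these calls, Cd209a alone also passed with the sets in the fit (limma adjusted p = 0.0326). Summed, the monocyte markers held 163 to 253 TPM in AeEM and 153 to 198 TPM in AeMM, mostly from Ccr2, and the dendritic cell markers 43.5 to 103 TPM in AeEM and 6.29 to 11.7 TPM in AeMM. The plasmacytoid dendritic cell markers Siglech and Ccr9, of cells known for making type I interferon, were at 0.0660 and 0.0611 TPM. Of the same list, Tcf4 was at 0.930 TPM and Cox6a2 at 5.82 TPM. Cox6a2, the only marker of that list tested, differed by 0.53 between overlapping groups (limma adjusted p = 0.601). All 6 T cell markers were under 1 TPM. S100a8, of 3 neutrophil markers tested, fell by 1.03 on the log2 scale in AeEM (limma adjusted p = 0.00437, or 0.0605 with the sets). Csf3r was at -0.53 and Mmp9 at 0.45, neither called. The cells of both groups had been sorted as Ly6G-negative, Siglec F-negative and Ly6C-negative. Summed hemoglobin and Alas2 transcripts held 7665 to 12745 TPM in AeEM and 4209 to 10475 TPM in AeMM, with none of the 5 passing. The part of these differences in the values of the interferon-stimulated genes was not tested.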

How the data were processed

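The 47 members and all gene lists were chosen with earlier results of these data known. Libraries were made by Smart-seq2, and the authors used fastp for read cleaning, STAR 2.7.2a for mapping to mm10 and Subread featureCounts for counting. The deposited values are log2(TPM + 1), judged from their sums after back-transformation, and their gene means show an adjustment between 3 sets of libraries before deposit by the authors. The conversion, the adjustment and the annotation are not given in the sources used here. Plain TPM had been assumed in the design, and the log2 values were instead used as deposited, with TPM recovered for filters and alternatives and values below 0 set to 0. The 8 columns were matched to samples by name, and columns of no sample numbered 0.

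AeEM minus AeMM was tested without pairing in limma 3.58.1 (R 4.3.3) with its trend option, for the 8801 genes whose mean reached 1 TPM, at a Benjamini-Hochberg adjusted p of 0.05. That fit takes the library values as independent, which they are not after the adjustment between sets. The script was tested on simulated data. Ascites came from 4 mice in 4 experimental runs, so equal replicate numbers may share a mouse or a run, but no source used here states it. Values in every library are given for members past the threshold or with separate groups, and for the most abundant and the most different member of each role. Library values of Cmpk2, Gbp5, Ifitm2, Isg15, Slfn2 and Tlr7 were added after they were seen. Alternatives were pseudocounts of 0.1 and 5, no filter, a minimum of 5 TPM, quantile normalization, size factors, no trend, the replicate block, the 3 sets, replicates 3 and 4 alone, and each library left out. Positions came from GENCODE M21, and shared 100-base stretches from its transcripts. One gene of the pathway lists is not reported here.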

Additional observations from a re-analysis of the deposited data

Results flagged for a closer look

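Of 78 groups of 4 libraries looked at, over the members and pathway genes named above, 7 held a library far from the other 3 on the log2(TPM + 1) scale. Chance gives about 1 in 20 groups of independent libraries, a rate that may not hold after the adjustment between sets, and all 7 lay in replicates 3 or 4. No cause was tested. Ifi27l2a was at 9.82 in AeEM replicate 3, where the others lay between 9.35 and 9.42. Ifitm3 was at 13.66 in the same library, against 13.53 to 13.55, a gap that is small on a level this high. AeEM replicate 3 was also high for Ifngr1, at 6.43 with the others at 6.39, and for Ptpn6, at 6.21 against 5.96 to 5.98. AeEM replicate 4 was low for Irf3, at 4.53 against 4.70 to 4.74, and for Jak2, at 1.73 against 2.50 to 2.65. AeMM replicate 3 was low for Socs3, at 4.31 against 4.93 to 4.96.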

How the results depend on the processing

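Against 0 members called, 1 was called without the filter (Trim30a), 2 with a minimum of 5 TPM (Trim30a and Iigp1), 2 after quantile normalization (Trim30a and Ifitm2) and 1 with size factors (Trim30a). Leaving out 1 library gave 0 to 2 members (Trim30a and Slfn5 without AeEM replicate 3, Ifi44 without AeMM replicate 3), 73 to 203 of all genes (under 142 without replicates 1 or 2 of either group or AeMM replicate 4) and 2 to 6 pathway genes (2 without AeEM replicate 1, AeEM replicate 2 or AeMM replicate 2). Without the trend 136 of all genes were called, with 3 sets as a term 14, and with replicates 3 and 4 only 0 (566 at an unadjusted p under 0.05), where the sets and replicates 3 and 4 only left 0 pathway genes. The replicate block left 5 of all genes, 0 members and 0 pathway genes. Whether equal numbers pair libraries could not be checked, because the adjustment itself fixed how they deviate (correlations of -0.992, -0.999, -0.199 and -0.133 for replicates 1 to 4). For replicates 1 and 2, leaving out 1 library therefore kept its value in the mirrored library. The median of the members stayed below 0, from -0.10 to -0.07 with 1 library left out, -0.09 after quantile normalization and -0.07 with size factors. The sign changed for Oas1a with a pseudocount of 5 (0.000730) and with size factors (0.0195), as it did for Jak2 (0.00468) and Tgtp2 (0.00157). With replicates 3 and 4 only it changed for Ifi204 (0.10), Ifi27l2a (0.18), Ifnar1 (0.0836), Ifnar2 (0.12), Ifngr2 (-0.0284), Jak1 (0.0523), Socs3 (0.0879) and Irgm2 (0.17). With 1 library left out it changed for Ifit3 (-0.24 to 0.14), Irf7 (-0.0103 to 0.20), Oas1a (-0.11 to 0.12), Usp18 (-0.00294 to 0.42), Ifngr2 (-0.0532 to 0.11), Jak2 (-0.11 to 0.20) and Tgtp2 (-0.20 to 0.20). None of these genes was called in any setting. The causes were not tested. With no read counts, the spread of 4 libraries a group limits what could be seen.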
